A study of Mus musculus with 18 samples.

Results

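The genes described here are the enzymes through which inflammatory macrophages make prostaglandins, nitric oxide and histamine and through which they break down arginine: Ptgs1, Ptgs2, Ptges, Nos2, Arg1, Arg2 and Hdc. These 7 genes were chosen by name, by asking which rows of the series' value table carry one of these symbols in the platform annotation, and 6 of the 7 had such a row, of 19454 genes in all. Each of the 6 had a single row. Ptgs1, the constitutive cyclooxygenase, was not analysed here. The cells were macrophages grown from bone marrow of C57Bl/6 mice in medium with M-CSF (macrophage colony-stimulating factor), and their RNA was measured on Mouse Gene ST 1.0 arrays made by Affymetrix. The KO groups were TTP-/- cells, which lack the mRNA-destabilising protein tristetraprolin (TTP, encoded by Zfp36), and the WT groups were cells with the intact gene. All 18 arrays, KO and WT, came from cells exposed to lipopolysaccharide (LPS) for 3 h and then given fresh medium with actinomycin D to stop transcription and the p38 kinase inhibitor SB203580. RNA was taken after 0, 45 or 90 min of this, with 3 arrays in each of the 6 groups (KO and WT at every time), so that time without transcription and time with the p38 inhibitor were the same variable. The labels name no Cre or transgene, do not say whether arrays of a group came from separate animals or cultures, and do not say whether the 3 times of a replicate share a culture. The p-values below are therefore set against a spread between samples that may be only technical.

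Cyclooxygenases turn arachidonic acid, which phospholipase A2 frees from membranes, into prostaglandin H2, and terminal synthases such as Ptges turn that into prostaglandin E2. Inducible nitric oxide synthase makes nitric oxide from arginine, the arginases split the same amino acid into ornithine and urea, and histidine decarboxylase makes histamine. Ptgs2 and Nos2 are textbook LPS-induced genes of macrophages, and the 3' untranslated region of Ptgs2 mRNA holds AU-rich elements, the kind of sequence that TTP binds before it recruits deadenylases.

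The values are microarray intensities on a linear scale, and differences are given on the log2 scale, where 1 is a doubling. The deposited arrays were normalised to similar but not identical distributions of signals, with array medians of 7.41 to 8.19 and maxima of 7379 to 14337. A difference is thus measured approximately against the average mRNA of its array, and an overall fall in RNA after the block would not show. A gene was tested where its highest group mean reached the median row of the table, an intensity of 7.83 (log2 2.97), called the signal limit below. In these bulk samples, fewer cells of a type and less RNA per cell cannot be told apart. Replicate 3 of every group carries lower sample numbers in its title (series A) than replicates 1 and 2 (series B), and these series came apart on principal component 1, which held 28.8% of the variance. Macrophage markers were well above the limit for 8 of 8 genes, and their mean log2 level lay between 9.15 and 9.79 on every array. Zfp36, the targeted gene, averaged a log2 intensity of 6.61 ± 0.31 in KO and 7.64 ± 0.45 in WT at 0 min (SD, n = 3 each), and 4.99 ± 0.85 in KO and 4.12 ± 0.03 in WT at 90 min. Its signal was thus lower in KO at 0 min in 3 of 3 replicates but not at the later times. Which part of the gene the row's probes cover is not given in the sources used here, so it is no check of the labels.

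The 6 enzymes spanned nearly the whole range of the array. Ptgs2 had a mean log2 intensity of 10.81 over the 18 arrays and ranked 43 of 19454 genes. Nos2 (7.61), Ptges (7.496) and Hdc (5.90) followed, at ranks 1020, 1127 and 3256. Arg2, at 3.18, sat just above the signal limit, and Arg1, at 1.90, lay below it in all 6 groups. Arg1 was therefore not tested, and 5 of the 7 enzymes were. These are signals of different probe sets, and the order says nothing of the relative number of mRNA molecules.

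**Figure D1:**
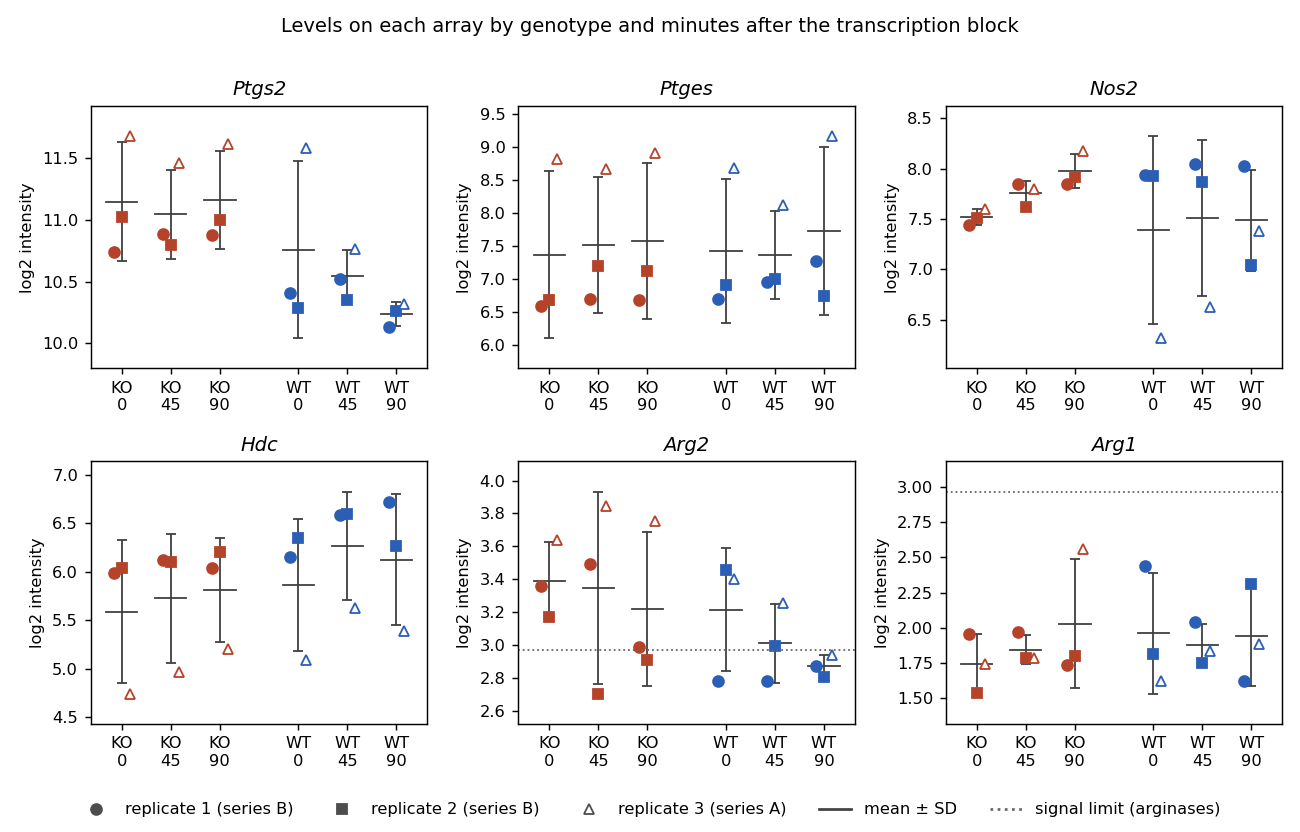
Each point is 1 array, with log2 intensity on the vertical axis and the groups on the horizontal axis (KO at 0, 45 and 90 min, then WT at 0, 45 and 90 min); circles, squares and triangles are replicates 1, 2 and 3, open triangles are series A, and bars are the group mean ± SD. Ptgs2 was higher in KO than in WT without overlap at 45 and 90 min, Ptges separated the open triangles from the filled points in all 6 groups, and Arg1 lay below the dotted signal limit.

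In the fit without a block over all 18 arrays, as deposited, no tested enzyme passed limma at an adjusted p of 0.05 in any of the comparisons: the change from 0 to 45 or 90 min in either genotype, KO against WT at each time or averaged over the times, and the decay difference, which is the KO change since 0 min with the WT change subtracted. At an unadjusted p of 0.05, 1 of 5 enzymes, Ptgs2, passed in KO against WT at 90 min, as did 5.79% of all genes, and in the average over the times, as did 11.6%. No enzyme did so in the other comparisons. Among all 10484 genes tested, the shares that passed were also small. Between 0 and 90 min they were 0.219% in KO and 1.19% in WT, and between 0 and 45 min they were 0.0477% in KO and 0.124% in WT. For KO against WT they were 0% at 0 min (7.52% unadjusted), 0.0191% at 45 min, 0.143% at 90 min and 1.28% averaged over the times. For the decay difference they were 0.0191% at 90 min and 0.00954% at 45 min. The average over the 3 times was added after the values had been seen.

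Ptgs2, the LPS-inducible cyclooxygenase, gave the strongest signal of the set and the largest difference between genotypes. At 0 min its intensity was 1706, 2079 and 3276 in KO replicates 1, 2 and 3, against 1357, 1247 and 3065 in WT. At 45 min it was 1888, 1776 and 2816 in KO, against 1468, 1302 and 1739.7 in WT. At 90 min it was 1878, 2043 and 3130.0 in KO, against 1119, 1229.6 and 1275 in WT. The groups overlapped at 0 min, where WT replicate 3 was as high as the KO arrays, and lay apart at 45 and 90 min, with every KO array above every WT array. Such separation with KO higher was seen for 5.89% of all genes at 45 min and 6.34% at 90 min.

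The KO minus WT log2 difference of Ptgs2 was 0.39 ± 0.31 at 0 min, 0.50 ± 0.31 at 45 min and 0.93 ± 0.31 at 90 min (SE, n = 3 arrays per group), and the 90 min value, a 1.90-fold difference, had a limma adjusted p of 0.593. Same-numbered KO and WT arrays deviated together from their group means at each of the 3 times, with correlations of 0.18, 0.20 and 0.65 at 90 min. The best match of a KO array was its same-numbered WT array in 3 of 3 cases at 0 min. At 45 and at 90 min this was so in 2 of 3. All 18 arrays were therefore also fitted with the replicate number as a block. This block gives each replicate 1 effect shared by all 6 groups. It does so also for WT at 0 and 90 min, whose same-numbered arrays did not all deviate together (0.42, -0.29 and -0.02). With this replicate block the 90 min difference had an adjusted p of 0.0263, in a fit where 0.763% of all genes passed. Its SE was 0.188, against 0.183 with the sample-number series as the block, and replicate and series effects were not tested apart. The difference was 0.75, 0.73 and 1.30 in replicates 1, 2 and 3. Leaving out any 1 of the 18 arrays from the replicate block fit kept the call in 13 cases and ended it without any 1 of the KO 90 min arrays, or without WT 90 min replicate 1 or 3, with adjusted p-values of up to 0.146.

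Averaged over the 3 times, Ptgs2 was 0.61 ± 0.18 higher in KO on the log2 scale, or 1.52-fold, with a 95% interval of 0.23 to 0.98 and a limma adjusted p of 0.127. KO was above WT in 9 of 9 same-numbered pairs, by 0.10 to 1.30, and in 8 of 9 when arrays were centred on housekeeping genes. The share of genes with KO higher in all 9 pairs was 2.98%. The pairs and the averaged fits, here and below, count the 3 times of a replicate as separate arrays, though these may share a culture. By replicate 1, 2 and 3, the averaged difference was 0.48, 0.64 and 0.70. With the replicate block the adjusted p was 0.00329, where 4.54% of all genes passed. That call held without each of the 18 arrays in turn, at 0.54 to 0.69. Within series B alone, which is replicates 1 and 2 of each group and so a part of the same arrays, the difference was 0.56. Its limma adjusted p was 0.00345, where 5.61% passed. Without WT 0 min replicate 3 it passed without a block as well, at 0.74 with a limma adjusted p of 0.00934, in a fit where 400 genes were higher and 93 lower, or 4.70% of all genes, against 1.28% with every array. Of the macrophage markers, 5 of 8 had a positive averaged difference, with a median of 0.18 over the 8, and 2 of 8 passed without a block: Mertk, a receptor for apoptotic cells, was higher in KO by 0.76 (limma adjusted p 0.000652) and Fcgr1, an Fc receptor, by 0.38 (limma adjusted p 0.0496). The summed intensity of the 8 markers was 10242 to 13183 on KO arrays and 9358 to 12681 on WT arrays, and the part of this in the Ptgs2 difference was not tested.

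**Figure D2:**
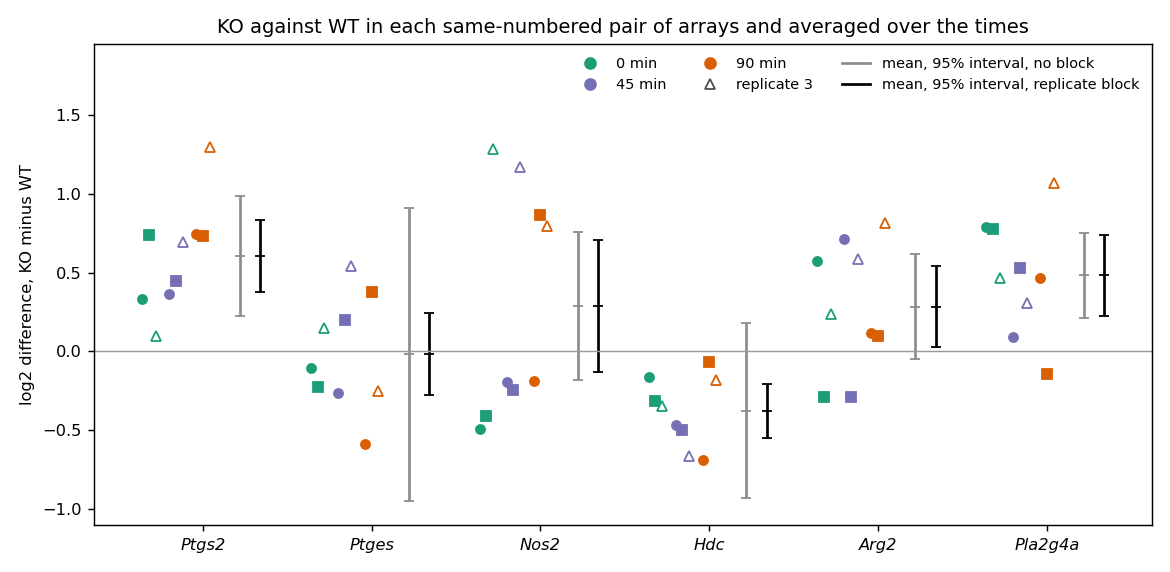
The vertical axis is the KO minus WT log2 difference; coloured points are the 9 same-numbered pairs of arrays by time (open triangles are replicate 3), and the lines to their right are the mean over the times with its 95% interval without a block (grey) and with the replicate block (black). All 9 pairs of Ptgs2 lay above 0 and all 9 of Hdc below it on the deposited scale (8 and 7 of 9 under the centrings named in the text), while the pairs of Nos2 and Ptges fell on both sides.

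Over the 90 min without transcription, no change of Ptgs2 passed the test in either genotype, and the widest one was in WT replicate 3. The log2 change at 90 min was 0.02 ± 0.31 in KO, with 0.14, -0.03 and -0.07 in replicates 1, 2 and 3. In WT it was -0.52 ± 0.31, with -0.28, -0.02 and -1.27 in the 3 replicates, and a limma adjusted p of 0.701. Without WT 0 min replicate 3 the WT change was -0.11. The decay difference was 0.54 ± 0.44, with a 95% interval of -0.39 to 1.46 and a limma adjusted p of 0.999. Subtracted by replicate number, it was 0.42, -0.005 and 1.200. Same-numbered WT arrays at 0 and 90 min did not all deviate together. The WT changes and decay differences by replicate number are therefore not matched values. A straight line over the 3 times put the half-life, relative to the average mRNA, at no less than 150 min in KO and 79.3 min in WT by the 95% interval. Neither interval had an upper end.

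Measured the same way, the mRNAs of Tnf and Cxcl2, which encode an inflammatory cytokine and a neutrophil-attracting chemokine, gave decay differences at 90 min of 3.79 ± 0.26 (limma adjusted p 3.69e-07) and 2.09 ± 0.33 (limma adjusted p 0.0376). The Tnf change at 90 min was -0.45 in KO and -4.24 in WT, and that of Cxcl2 was 0.11 in KO and -1.98 in WT. The Tnf call at 90 min held in 30 of 30 alternatives. That of Cxcl2 held in 9 of 30 and without 3 of the 18 arrays in turn, with adjusted p-values of 0.00160 to 0.154 over these omissions. The decay difference of Ptgs2 was not tested against that of either gene.

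**Figure D3:**
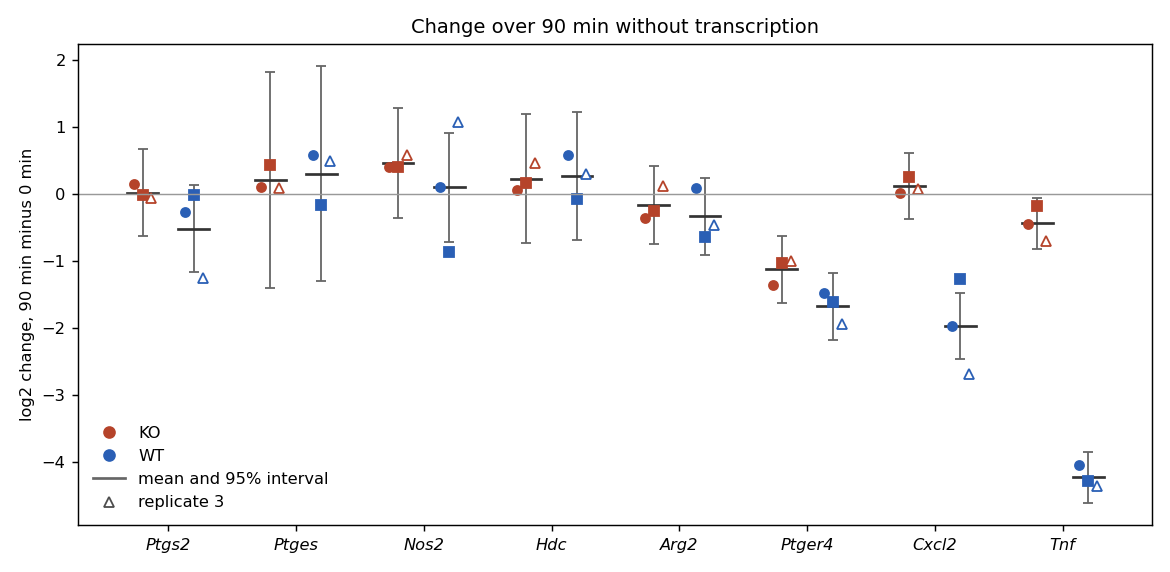
The vertical axis is the log2 change from 0 to 90 min, with KO left of WT for each gene; points are same-numbered replicates (circle 1, square 2, open triangle 3) and bars the mean with its 95% interval. The intervals of the 5 tested enzymes include 0 in both genotypes, while Ptger4, Cxcl2 and Tnf lie below 0 in WT.

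Ptges, the inducible synthase that makes prostaglandin E2 from the cyclooxygenase product, differed more between the sample-number series than between any of the groups compared. At 0 min its intensity was 96.6, 103 and 455 in KO replicates 1, 2 and 3, against 104, 120.1 and 409 in WT. At 90 min it was 103, 139 and 484 in KO, against 155, 107 and 574 in WT. Replicate 3 was the highest array in each of the 6 groups. The series A mean was 1.85 log2 units above that of series B, a gap larger than that of 99.8% of tested genes. The KO minus WT differences were -0.06 ± 0.76 at 0 min, 0.16 ± 0.76 at 45 min and -0.15 ± 0.76 at 90 min. In the average over the times, the replicate block gave a 95% interval of -0.28 to 0.25, against -0.95 to 0.91 without it, around a difference of -0.02. Pf4, which encodes a platelet chemokine, was 1.30 higher in series A. Of the 5 listed platelet and megakaryocyte genes 4 had a row and 3 passed the limit, with summed intensities of 246 to 1197 on KO arrays and 241 to 515 on WT arrays, and their part in the Ptges values was not tested.

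Nos2, inducible nitric oxide synthase, had tightly grouped values in KO and scattered ones in WT. At 0 min its intensity was 174, 183 and 194 in KO replicates 1, 2 and 3, against 244, 243 and 79.6 in WT. At 45 min it was 231, 197 and 222 in KO, against 264, 234 and 98.5 in WT. At 90 min it was 229.6, 241 and 288 in KO, against 261, 132 and 166 in WT. The SD of the log2 values was 0.08 to 0.17 in the KO groups and 0.50 to 0.93 in the WT groups, and the difference in spread was not tested. KO was below WT in both series B pairs and above it in the series A pair at 0 and at 45 min: the difference at 0 min was -0.49, -0.41 and 1.29 in replicates 1, 2 and 3. The mean differences were 0.13 ± 0.39 at 0 min, 0.24 ± 0.39 at 45 min and 0.49 ± 0.39 at 90 min, with limma adjusted p-values of 0.956, 1.00 and 0.913.

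Over time, every KO array at 90 min had a higher Nos2 signal than every KO array at 0 min, as 5.59% of all genes did. The KO change was 0.46 ± 0.39, with 0.40, 0.40 and 0.57 in the 3 replicates, and a limma adjusted p of 1.00. The WT change was 0.09 ± 0.39, with 0.10, -0.88 and 1.06 by replicate number, which was not taken to pair these WT arrays. The decay difference was 0.36, with a 95% interval of -0.79 to 1.52. Since transcription was blocked and the arrays were normalised to similar distributions, a positive value here is a level relative to the average mRNA.

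The arginases, which use the same substrate as Nos2, were near or below what the arrays resolve. Arg1, the cytosolic arginase, had intensities of 2.90 to 5.90 on KO arrays and 3.07 to 5.43 on WT arrays, all below the limit of 7.83, and no fold is given for it. Arg2, the mitochondrial arginase, had 6.53 to 14.4 on KO arrays and 6.88 to 10.99 on WT arrays. Its WT mean at 90 min, log2 2.87, was already below the limit, so a fall there would be understated. The averaged KO minus WT difference of Arg2 was 0.29 ± 0.16 with a limma adjusted p of 0.517. KO was higher in 7 of 9 pairs, a count for which no share of all genes was computed. The change of Arg2 at 90 min was -0.17 ± 0.27 in KO and -0.34 ± 0.27 in WT.

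Hdc, histidine decarboxylase, the only enzyme that makes histamine in mammals, had lower values in KO than in WT in each same-numbered pair as deposited. At 0 min its intensity was 63.3, 65.9 and 26.7 in KO replicates 1, 2 and 3, against 71.0, 81.8 and 34.04 in WT. At 45 min it was 69.5, 68.7 and 31.1 in KO, against 96.1, 96.9 and 49.3 in WT. At 90 min it was 65.6, 73.7 and 36.8 in KO, against 106, 77.1 and 41.8 in WT. The groups overlapped at all 3 times, and replicate 3 was the lowest array in each: the series A mean was 1.10 log2 units below that of series B, a larger gap than that of 98.6% of tested genes.

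Paired by replicate number, Hdc was lower in KO in 9 of 9 pairs, by log2 differences of -0.69 to -0.06, and in 7 of 9 when arrays were centred on ribosomal protein genes. The share of genes with KO lower in all 9 pairs was 1.37%. The 3 times of a replicate, counted here as separate arrays, may share a culture. By replicate 1, 2 and 3, the difference over the times was -0.44, -0.29 and -0.40. The averaged difference was -0.38 ± 0.26 with a limma adjusted p of 0.629. With the replicate block it kept that size and had an SE of 0.08 and an adjusted p of 0.0133, where 4.54% of all genes passed. This call held without each of the 18 arrays in turn, at -0.42 to -0.33. Series B alone gave -0.37 (limma adjusted p 0.0488), where 5.61% of all genes passed. At 90 min alone it was -0.31, with an adjusted p of 0.964 without a block and 0.494 with the replicate block. The change over 90 min was 0.22 ± 0.46 in KO and 0.26 ± 0.46 in WT. Mast cells and basophils are the best known sources of Hdc, and 0 of 8 mast cell and 0 of 3 basophil markers passed the signal limit. The 8 mast cell markers summed to 27.6 to 31.6 on KO arrays and 26.5 to 34.4 on WT arrays, with no marker at 0.

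Because Ptgs2 and Hdc were the 2 enzymes whose averaged difference passed with the replicate block, in opposite directions, their promoters are shown, from 250 bases before to 50 bases after the annotated start (RefSeq, GRCm38.p6, 5' to 3' on the gene's strand). Promoter windows were at hand for 4 of the 7 enzymes. Capitals mark matches to motifs searched on both strands: the cyclic AMP response element core ACGTCA, the E-box CACGTG and the GC box GGGGCGGGG. TATAAA was searched as well and matched neither window.
Ptgs2, chr1:150099781-150100080, plus strand: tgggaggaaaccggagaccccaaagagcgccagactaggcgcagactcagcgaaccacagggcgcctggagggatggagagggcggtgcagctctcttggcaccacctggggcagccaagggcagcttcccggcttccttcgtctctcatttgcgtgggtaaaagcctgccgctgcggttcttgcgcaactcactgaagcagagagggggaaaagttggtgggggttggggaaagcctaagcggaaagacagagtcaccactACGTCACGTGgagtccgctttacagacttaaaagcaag
Hdc, chr2:126618629-126618928, minus strand: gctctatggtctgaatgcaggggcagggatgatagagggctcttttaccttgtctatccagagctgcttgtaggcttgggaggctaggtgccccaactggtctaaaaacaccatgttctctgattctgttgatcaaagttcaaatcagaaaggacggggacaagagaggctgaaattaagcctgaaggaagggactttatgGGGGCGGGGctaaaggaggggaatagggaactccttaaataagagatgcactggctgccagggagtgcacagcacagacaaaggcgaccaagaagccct
In Ptgs2 the response element core and the E-box overlap and begin 12 and 16 bases after the start. In Hdc the GC box begins 49 bases before the start. The Hdc window lies inside the annotated gene, whose outer end on the minus strand is at 126624025, so it belongs to another annotated start than the outermost one. Of 32544 promoter windows of this length, 7.55% hold ACGTCA, 7.17% hold CACGTG, 11.5% hold GGGGCGGGG and 13.6% hold TATAAA. No file of the series measures binding or promoter activity, and these matches describe the letters only.

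The averaged difference of the 5 tested enzymes against that of all 10484 genes shows where the set lies. Ptgs2 was above 99.0% of tested genes and Hdc below all but 1.77%, while Ptges was at 43.9%. Nos2 and Arg2 were above 93.1% and 93.0%. The median over all tested genes was 0.005.

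**Figure D4:**
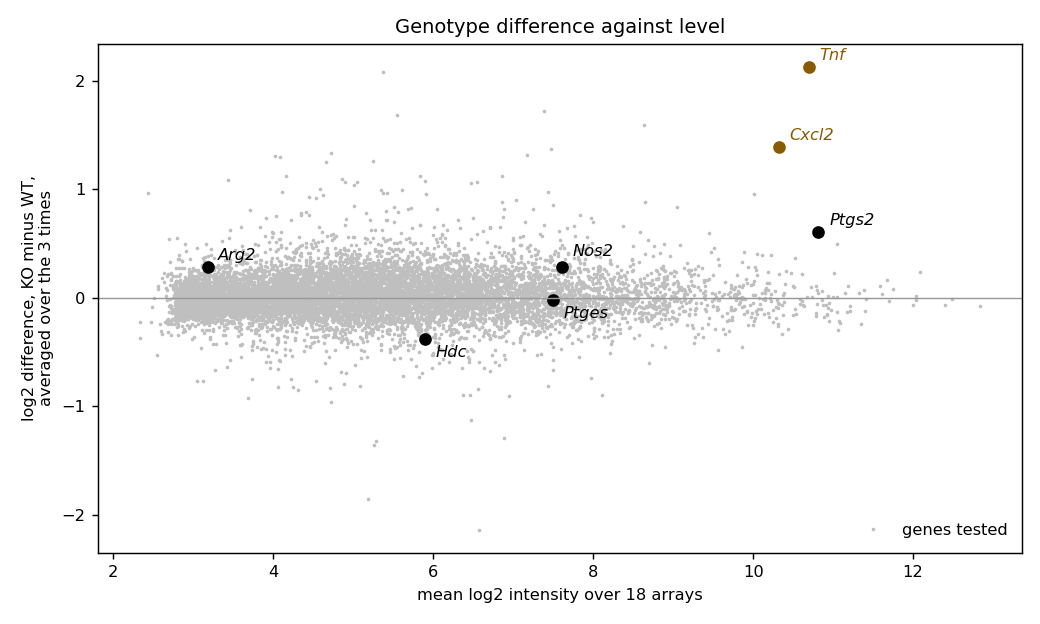
Each grey point is 1 of the 10484 tested genes, with its mean log2 intensity over 18 arrays on the horizontal axis and its KO minus WT log2 difference averaged over the 3 times on the vertical axis; black points are the enzymes and brown points are Tnf and Cxcl2. Ptgs2 at 0.61 stands among the brightest genes below Cxcl2 and Tnf, and Hdc at -0.38 lies on the lower side.

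The surrounding pathways were described with 8 lists of 68 genes, of which 59 had a row and 41 were tested. The only genes of these lists that passed without a block in a change over 90 min or in the averaged genotype difference were 2 of the 5 tested prostanoid receptors. Ptger4, the EP4 receptor for prostaglandin E2, had intensities of 34.9, 45.5 and 28.7 at 0 min and 13.6, 22.3 and 14.3 at 90 min in KO replicates 1, 2 and 3. In WT it had 38.0, 31.3 and 52.9 at 0 min and 13.6, 10.2 and 13.7 at 90 min. Every 90 min array lay below every 0 min array in both genotypes, as was so for 6.24% of genes in KO and 7.13% in WT.

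Ptger4 fell in WT by 1.68 on the log2 scale (SE 0.24, limma adjusted p 0.000825). In KO the change was -1.13 ± 0.24 with a limma adjusted p of 0.0729, and 0.0460 with the replicate block, in a comparison whose same-numbered arrays deviated together. In that fit 0.544% of genes passed. Without a block, the KO value passed in 3 of 18 omissions of 1 array: KO 45 min replicate 2, KO 90 min replicate 2 or WT 0 min replicate 3. Over the 18 omissions the limma adjusted p reached 0.558. Within series B it was 0.0954, and the KO value passed in 6 of 30 alternatives. The decay difference was 0.55 ± 0.34 with an adjusted p of 0.999, so the genotypes were not shown to differ. The half-life relative to the average mRNA was 79.6 min in KO (95% interval 54.2 to 149.6) and 53.5 min in WT (40.7 to 78.0). Ptger2, the EP2 receptor, passed the signal limit only through its WT 0 min mean, and the other 5 groups lay below it. Its WT change of -0.75 (limma adjusted p 0.0296) is therefore given as a description, since it could pass the limit only where WT was high at 0 min. The call was lost without WT 0 min replicate 1 or 2 or WT 90 min replicate 1 or 2, with adjusted p-values of up to 0.147.

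Of the 6 tested genes of prostaglandin supply and synthesis, none passed without a block in these comparisons, and their median averaged difference was -0.02. Ptges3, the constitutive cytosolic prostaglandin E synthase and a cochaperone, was the brightest, at a log2 of 9.50 with a difference of -0.08 ± 0.11. Pla2g4a, the cytosolic phospholipase A2 that frees arachidonic acid, was 0.48 ± 0.13 higher in KO, with a limma adjusted p of 0.0833. With the replicate block the adjusted p was 0.0294, where 4.54% of all genes passed. KO was higher in 8 of 9 pairs, a count for which no share of all genes was computed. Without a block, Pla2g4a passed in 2 of 18 omissions. These were WT 0 min replicate 3 (0.56), where 4.70% of all genes passed, and WT 90 min replicate 2 (0.57), where 1.08% did.

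The other lists held no gene that passed in those comparisons without a block over all arrays. Within series B, Alox5, which encodes 5-lipoxygenase, passed in the average at -0.51 (limma adjusted p 0.0183), where 5.61% of all genes passed. In the WT change over 90 min within series B, Hnmt passed at 1.03 (limma adjusted p 0.0122) and Hpgds, hematopoietic prostaglandin D synthase, at 1.07 (limma adjusted p 0.00653), where 757 genes were higher and 603 lower, or 13.0% of all genes. For the 4 tested genes of prostaglandin removal and transport the median averaged difference was -0.10, with Ptgr1, a prostaglandin reductase, at -0.17 ± 0.12 and Abcc4, an exporter, at -0.03 ± 0.18. For the 4 of leukotriene synthesis it was -0.16, with Alox5ap, the 5-lipoxygenase activating protein, at -0.06 ± 0.11 and Lta4h, leukotriene A4 hydrolase, at -0.24 ± 0.09. The 6 genes that make or recycle the cofactor of nitric oxide synthase or act with it had a median of -0.06. Among them Gch1, which starts the synthesis of tetrahydrobiopterin, was at -0.05 ± 0.09 and Qdpr, which recycles it, at -0.12 ± 0.07.

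Arginine transport gave a median of -0.01 over 6 tested genes, with the carrier subunit Slc3a2 at 0.03 ± 0.11 and the cationic amino acid transporter Slc7a2 at -0.06 ± 0.10. Polyamine and proline synthesis, downstream of the arginases, gave -0.14 over 7, with Odc1, ornithine decarboxylase, at -0.15 ± 0.12 and Sat1, an acetyltransferase of polyamine breakdown, at -0.14 ± 0.09. Histamine handling gave -0.05 over 3, with Hnmt, which methylates histamine, at -0.03 ± 0.20 and the receptor Hrh2 at -0.05 ± 0.11. The 5 tested prostanoid receptors had a median of -0.15. The all-gene median was 0.005, and no list is called distinct from it.

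As a description across the 18 arrays, after each gene's mean within its sample-number series was subtracted, the profiles most like Ptgs2 were those of Cd274 (Pearson r 0.94), Lcp2 (0.92) and Lrch1 (0.92). Without that subtraction the values were 0.18, 0.45 and 0.85. For Hdc they were Nr4a3 (0.82), Ccl5 (0.81) and Ube2c (0.80), and for Nos2 Atn1, Tapbp and Tmem63a (0.89 to 0.90). For Ptges they were Btbd2, Tgfbi and Pisd (0.81 to 0.82), and for Arg2 Adm, Paqr7 and Slc20a1 (0.73 to 0.77). These arrays share genotype, time and series, and each gene was picked as the highest of all those tested.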

How the data were processed

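The deposited intensities were made by the authors with RMA in Expression Console, per the submitters' processing notes; no version is given. Their range shows a linear scale. Of 25138 rows, 21039 had 1 symbol in the platform annotation, 1485 several and 2614 were not listed; only the first kind was named. The brightest row per symbol was kept and the log2 of the deposited intensity was taken with no offset. limma 3.58.1 under R 4.3.3 fitted group means over all 18 arrays without a block. Benjamini-Hochberg adjustment was made within each comparison over 10484 genes at 0.05. This fit was tested on simulated independent arrays without series or replicate effects, and the fits with a block were not. For arrays, their number limits the precision. Half-lives were derived from linear fits over time.

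The members and lists were chosen with earlier results of these data known, and KO against WT averaged over the times was added after seeing the data. Named genes were the members, Tnf, Cxcl2 and Zfp36, up to 4 passing genes of each pathway list or the 2 brightest where none passed, and the 3 most alike genes per member. Mertk, Fcgr1 and Pf4, from the cell marker lists, were named after their values were seen. Replicate numbers were taken to pair the samples where every correlation of same-numbered deviations exceeded 0.1. This held for KO against WT at 0, 45 and 90 min (lowest 0.155, 0.196 and 0.181), KO at 90 and 45 min (0.409 and 0.319) and WT at 45 min (0.329), not for WT at 90 min (-0.287) nor, therefore, for decay differences. Correlations within groups were 0.971 to 0.995 and no 2 arrays were identical. Fibroblast, neutrophil, B cell and T cell markers passed the limit for 4 of 8, 1 of 8, 0 of 4 and 1 of 4 genes measured.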

Additional observations from a re-analysis of the deposited data

Results flagged for a closer look

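Among the genes given for comparison, the change from 0 min differed between KO and WT. For Tnf the difference was 3.79 at 90 min and 2.01 at 45 min (limma adjusted p 0.00468), with the same sign in 3 of 3 replicates at both times. The 45 min call held in 28 of 30 alternatives and was lost after centring on ribosomal protein genes (limma adjusted p 0.134) or on housekeeping genes (limma adjusted p 1.00). For Cxcl2 it was 2.09 at 90 min, a call that held in 9 of 30 alternatives. The change of Cxcl2 at 90 min was positive in all 3 KO replicates, with a mean of 0.11, and negative in all 3 WT replicates, with a mean of -1.98. Replicate numbers were not taken to pair WT arrays over 90 min or decay differences, so these signs go by number only. No tested enzyme of the set met these criteria, and groups of 3 arrays are too small for a check of single outlying arrays.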

How the results depend on the processing

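The number of tested enzymes that passed was 0 in the fit without a block. In KO against WT at 90 min it was 1 (Ptgs2) with the replicate block, with the series as a block and within series B, where 0.763%, 0.868% and 0.992% of all genes passed. In the average over the times it was 2 (Ptgs2 and Hdc) in those same 3 fits (4.54%, 4.68% and 5.61% of all genes), and 1 (Ptgs2) after quantile normalization (1.57%) and after centring on ribosomal protein genes (2.64%). That centring raised the all-gene median of the average to 0.177, from 0.005, with 259 genes higher and 18 lower in KO. The Ptgs2 value under it includes this shift. Leaving out each array in turn without a block gave 0 to 1, with the 1 without WT 0 min replicate 3 (4.70% of all genes, against 1.28%). In the other comparisons it was 0 under every alternative run. No result reversed past the threshold, and the cause of these changes was not tested. Alternatives covered the filter on low signals, an offset of 16, the scaling, the rows per symbol, trend and robust variances, the groups fitted and each array. Ptgs2 at 90 min ranged from 0.70 to 1.07 and averaged over the times from 0.52 to 0.78, and Hdc averaged from -0.51 to -0.20. The fall of Ptger4 in WT passed in all 30 alternatives (-1.88 to -0.98). Centring on ribosomal protein genes moved the all-gene median by 0.27 at 0 min for KO against WT, and centring on housekeeping genes moved it by -0.19; relative to these shifts Ptgs2 kept its sign. The replicate block raised the number of all genes called in KO against WT at 90 min to 80, against 15 without it, and in the average to 476, against 134. Within series B, 835 genes were higher and 97 lower in KO at 0 min, where none passed over all arrays. The signal limit bears on Arg1, Arg2 and Ptger2. The SE of the Ptges difference at 90 min was 0.76 without a block and 0.21 with the replicate block.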
